A study of Mus musculus with 12 samples.

Results

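The expression of 53 genes of the cell cycle and of DNA replication was followed in a mouse model in which the transcription factor PU.1 carries the Q202L exchange. The members were listed by gene symbol in 3 groups by role, with 24 genes of mitosis, 16 of S phase and 13 cyclins, cyclin-dependent kinases, inhibitors and E2F factors. Of these 53, 52 had a probe set annotated to a single gene among 18193 genes on the array, and each was represented by its brightest probe set over all arrays. Ccnb1, a mitotic cyclin, had no such probe set in the annotation table used here and was not measured.

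PU.1, encoded by Spi1, is an ETS factor that myeloid and B lymphoid cells need, and c-Jun is one of its partners. The study asked what the mutant protein, selected for a lost interaction with c-Jun while still binding DNA, does in blood progenitors. Cells were sorted from the liver, and their RNA was hybridized to 12 mouse arrays (Affymetrix MG430 v2), 3 in each of 4 groups. The groups were short-term hematopoietic stem cells (ST-HSC) and granulocyte-monocyte progenitors (GMP), each from mice homozygous for the knock-in (KI) and from wild-type (WT) animals.

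All animals were newborn littermates from matings of heterozygotes, with the strain given as C57Bl/6. The mutation was introduced into the gene itself, so every cell of a KI mouse carried it and the Spi1 level does not check the labels. ST-HSC were gated as lin-, Sca-1+, c-kit+, CD150- and CD48+ in the sample records, whereas the title of the series has CD48-. GMP were lin-, Sca-1-, c-kit+, CD34+ and high for FcgRII/III, and the study calls the KI cells of this gate GMP-like and describes their CD34 as intermediate. The study's text names fetal liver and a mixed strain background, and these differences from the sample records could not be settled. Nothing in the records ties an array to 1 animal, so the spread between arrays may be partly technical.

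A dividing cell passes from G1 into S phase, where DNA is copied, and then through G2 into mitosis. D-type cyclins with Cdk4 and Cdk6 start this sequence by phosphorylating the retinoblastoma protein, which releases E2F factors. E2F factors switch on genes of S phase such as those of the MCM helicase and of nucleotide synthesis, and genes of mitosis follow later through the DREAM and MuvB complexes, FOXM1 and B-MYB. Inhibitors of the Cip/Kip and INK4 families hold the kinases back. Fetal and newborn liver progenitors divide actively, and leaving the cycle accompanies terminal differentiation in myeloid cells.

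The array values are log2 values normalized by robust multi-array averaging (RMA), so a difference of 1 is a doubling. Array medians were 5.00 to 5.10 for ST-HSC and 4.70 to 4.79 for GMP, which are separate ranges, and no level was tested between the populations. The arrays carry no read depth, and their number limits the precision. Xist was at 10.67 to 11.74 in WT replicates 1 and 3 of both populations and at 2.98 to 3.78 in WT replicate 2 and in all 6 KI arrays, so sex and genotype were partly confounded. The mean of 9 measured stem cell markers was 8.53 to 8.89 in KI and 8.85 to 9.10 in WT ST-HSC, and 5.74 to 6.24 in KI and 6.58 to 6.92 in WT GMP. The mean of 7 granulocyte-lineage markers was 10.42 to 10.61 in KI and 9.50 to 10.39 in WT ST-HSC, and 10.70 to 11.29 in KI and 11.21 to 11.29 in WT GMP. Macrophage markers (7 measured) averaged 3.94 to 4.39 in KI against 6.58 to 7.24 in WT ST-HSC, and 4.16 to 4.45 in KI against 5.75 to 6.22 in WT GMP. B lineage markers (6 measured) averaged 4.54 to 4.59 in KI ST-HSC and 6.54 to 8.01 in WT ST-HSC.

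All 52 members lay above the median probe set in mean level, and 31 lay above the 90th percentile. Few of them changed with the genotype. In ST-HSC 1 member, Mki67, was higher in KI at an adjusted p under 0.05 (limma over all 12 arrays, Benjamini-Hochberg over 45037 probe sets), and 0 were lower. Of all genes, 1.33% were higher and 1.68% lower in this comparison. In GMP 1 member, E2f2, was higher and 1, Ccnd1, was lower, against 1.19% and 1.4% of all genes. One member is 1.92% of the 52, so the members were called about as often as genes in general. With no adjustment, 5 members in ST-HSC and 15 in GMP had a limma p under 0.05, beside 2605 and 2885 of all 18193 genes. Since the RNA came from sorted pools, fewer cells of a type and less RNA per cell cannot be told apart in any of these differences.

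The sizes of the differences were small for most members. The KI minus WT difference lay between -0.5 and 0.5 on the log2 scale for 46 members in ST-HSC and for 39 in GMP. The 95% confidence interval, which carries no correction for multiple testing, stayed within 1 log2 unit of 0 for 44 members in ST-HSC and 36 in GMP. The median difference over the members was -0.06 in ST-HSC and -0.17 in GMP, beside -0.02 and -0.03 over all genes. KI lay below WT on every array for 11 members in each population (21.2%), and above WT for 3 in ST-HSC (5.77%) and 4 in GMP (7.69%). Over all genes KI arrays lay wholly below WT for 11.2% in ST-HSC and 11.1% in GMP, and wholly above for 10.9% and 8.26%. Members are bright genes, and among the 5305 genes above the 80th percentile the share wholly below WT in GMP was 17.7%, with a median of -0.09.

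**Figure D1:**
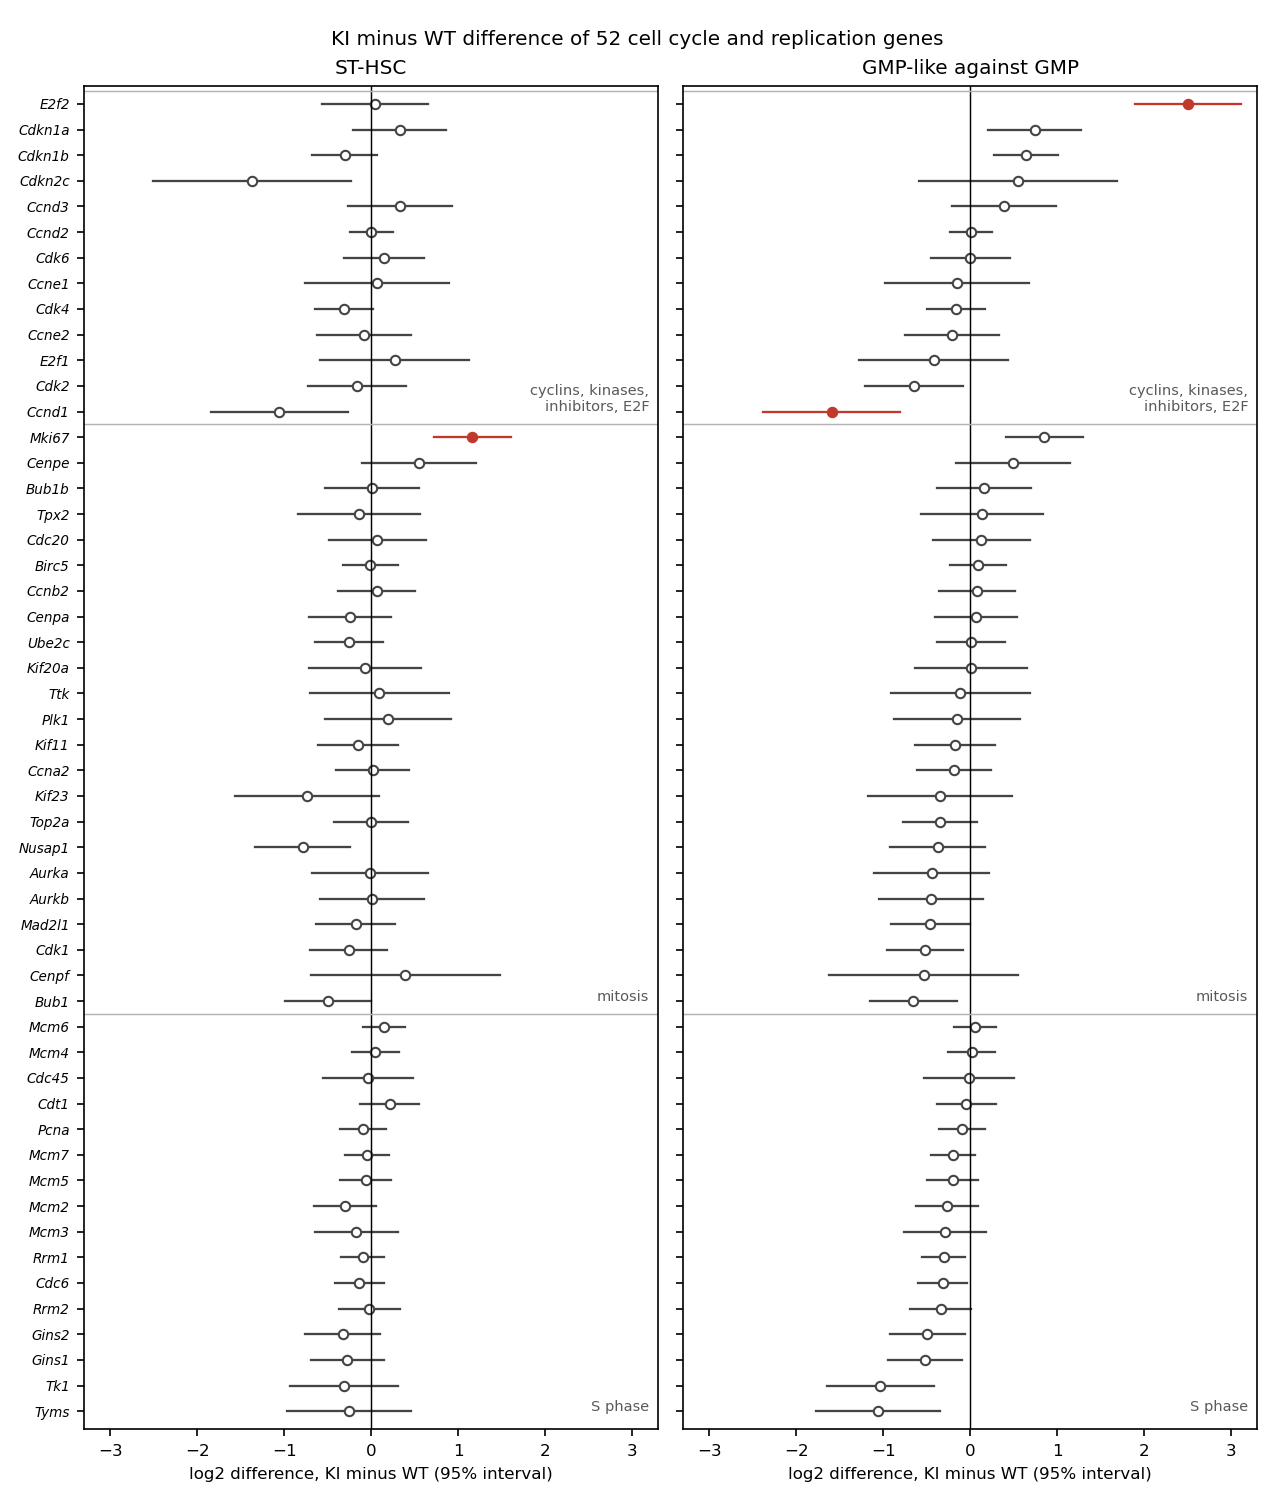
Log2 difference of KI minus WT for the 52 measured members in ST-HSC (left panel) and GMP (right panel), with points for the limma estimate, lines for its 95% confidence interval and filled red points for an adjusted p under 0.05. Mki67 was called in ST-HSC, E2f2 and Ccnd1 in GMP, and in GMP 14 of the 16 S phase genes lay below 0.

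No S phase gene passed the test in either population by its brightest probe set with all 12 arrays in the fit. In GMP, 14 of 16 S phase genes had a mean below WT (87.5%, beside 54.9% of all genes), with a median of -0.28. For 8 of the 16 genes (50%) every KI array was below every WT array, beside 11.1% of all genes. The share among bright genes was higher, as given above. The mean log2 level of the 16 genes was 10.32, 10.31 and 10.24 in the KI GMP arrays and 10.55, 10.62 and 10.65 in the WT GMP arrays. These ranges do not overlap, and the gap is a fraction of a doubling. The means of the stem cell and macrophage markers given above were also wholly lower in KI GMP, and their part in the S phase difference was not tested. In ST-HSC the same mean was 10.67, 10.60 and 10.59 in KI and 10.67, 10.79 and 10.73 in WT, with 13 of 16 genes below 0 and a median of -0.09. After quantile normalization within GMP the median was -0.21, with 12 genes below 0 and 5 wholly below WT (31.25%, beside 10.9% of all genes). With array medians subtracted the median was -0.31, with 15 below 0 and 9 wholly below WT (56.25%, beside 13.1% of all genes).

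**Figure D2:**
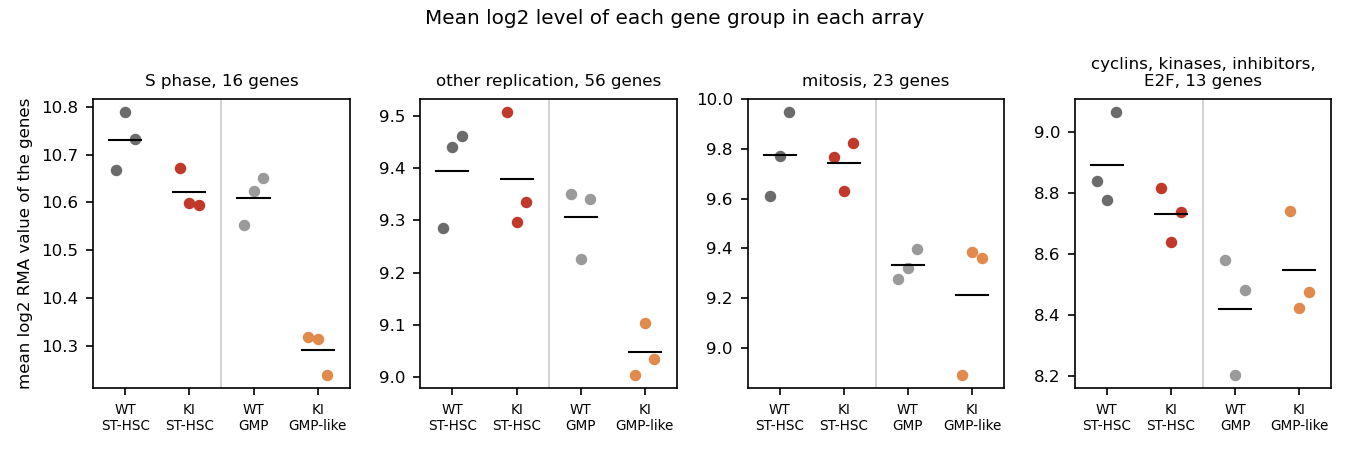
Mean log2 RMA value of each gene group in every array (points, in order of replicate number) with the mean of the 3 arrays (line) for the 4 sample groups. The S phase mean was 10.24 to 10.32 in KI GMP and 10.55 to 10.65 in WT GMP, whereas KI GMP replicate 1 lay apart for the mitosis genes at 8.89.

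The largest differences within S phase in GMP were in the synthesis of thymidine nucleotides. Tyms, thymidylate synthase, was at 6.20, 5.20 and 6.03 in KI GMP and at 6.48, 7.06 and 7.07 in WT GMP. Its difference was -1.06 (SE 0.32, limma adjusted p = 0.133), and in ST-HSC it was -0.25 (adjusted p = 0.832). Its other 3 probe sets, which were dimmer, gave -0.27 to -0.47 in GMP and 0.30 to 0.67 in ST-HSC. Tk1, the thymidine kinase of the salvage pathway, was at 8.32, 9.05 and 7.80 in KI GMP and at 9.32, 9.20 and 9.75 in WT GMP. Its arrays were also separate in ST-HSC, with KI at 9.80, 9.41 and 9.34 and WT at 9.83, 9.85 and 9.80. The differences were -1.03 in GMP (SE 0.28, limma adjusted p = 0.095) and -0.31 in ST-HSC (adjusted p = 0.736), and neither passed the test. Without KI GMP replicate 2 the Tk1 difference in GMP was -1.36 and passed (limma adjusted p = 0.0172). Both subunits of ribonucleotide reductase, which makes deoxyribonucleotides, were bright: Rrm1 differed by -0.31 (adjusted p = 0.222) and Rrm2 by -0.34 (adjusted p = 0.372) in GMP.

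Of the GINS complex, which joins Cdc45 and the MCM ring in the active helicase, Gins1 and Gins2 were measured. Gins2 was at 10.64, 10.96 and 10.07 in KI GMP and a mean of 11.05 ± 0.06 (SD, n = 3) in WT GMP, with KI below each WT array, and at 10.93, 10.79 and 10.78 in KI ST-HSC and 11.16, 11.27 and 11.05 in WT ST-HSC. KI was thus below WT on all arrays of both populations, by -0.49 in GMP (adjusted p = 0.273) and -0.33 in ST-HSC (adjusted p = 0.554). A second probe set of Gins2 gave -0.64 in GMP and passed the test there (limma adjusted p = 0.0474), the only probe set of a member to do so besides the representative ones. Gins1 differed by -0.52 in GMP, where KI arrays at 10.03, 10.16 and 9.43 lay below WT arrays at 10.54, 10.24 and 10.40 (adjusted p = 0.226). In ST-HSC its difference was -0.27 (adjusted p = 0.633).

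The MCM genes encode the ring that unwinds DNA, and their differences were small. In GMP the differences of Mcm2 to Mcm7 ran from -0.29 for Mcm3 to 0.06 for Mcm6, and in ST-HSC from -0.30 for Mcm2 to 0.15 for Mcm6. Mcm2 was at 9.75, 9.39 and 9.36 in KI ST-HSC and 9.93, 9.75 and 9.73 in WT ST-HSC (adjusted p = 0.48), and at 9.23, 9.20 and 9.64 in KI GMP and 9.66, 9.54 and 9.67 in WT GMP. Mcm6 was the only S phase gene whose KI arrays all lay above WT, in ST-HSC. Pcna, the sliding clamp of the polymerases, was among the brightest members, with 12.84, 12.75 and 12.58 in KI ST-HSC against 12.78, 12.87 and 12.80 in WT, and 12.64, 12.41 and 12.56 in KI GMP against 12.72, 12.58 and 12.59 in WT. Its difference was -0.09 in both populations, with an interval from -0.36 to 0.17 in GMP, and the KI and WT arrays overlapped. Of the licensing factors that load the MCM ring, Cdc6 differed by -0.32 in GMP, with every KI array below WT (adjusted p = 0.278), and Cdt1 by -0.04.

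Promoter windows of all groups were searched for the letters of set motifs, with the E2F site given here and the others below. RefSeq promoter windows of GRCm38.p6, from 250 bases before to 50 bases after each start, were at hand for 43 of the 53 members (48 windows) and for 32851 windows in all. The letters of an E2F site (TTTCCCGC, TTTGGCGC, TTTCGCGC or TTTGCCGC, on either strand) stood in 6 of 14 S phase windows (42.9%), beside 2.26% of all windows, 5% of the mitosis windows and 14.3% of the cyclin, kinase, inhibitor and E2F windows. The stretches of 30 bases below hold 1 match for each of the 6 genes, read in the direction of the gene, with the match in capitals.
Cdc6, chr11:98908002-98908031, plus strand: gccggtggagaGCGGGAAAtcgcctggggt
Mcm7, chr5:138172030-138172059, minus strand: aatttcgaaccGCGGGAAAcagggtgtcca
Mcm5, chr8:75109345-75109374, plus strand: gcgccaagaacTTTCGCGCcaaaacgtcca
Mcm6, chr1:128359797-128359826, minus strand: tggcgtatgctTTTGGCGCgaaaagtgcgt
Mcm3, chr1:20820275-20820304, minus strand: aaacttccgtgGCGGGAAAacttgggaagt
Cdt1, chr8:122568035-122568064, plus strand: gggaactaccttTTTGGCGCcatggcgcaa
The matches of Cdc6, Mcm7, Mcm5 and Mcm6 began 138, 165, 153 and 110 bases before the start, and those of Mcm3 and Cdt1 began at base 20 and base 33 of the transcript. Mcm3, Mcm5, Mcm6 and Mcm7 belong to the MCM helicase, and none of the 6 passed the test in either population. The windows of Tyms and Tk1, the S phase genes with the largest differences in GMP, held no match to these letters.

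Mitosis genes as a group differed little between the genotypes. Their median difference was -0.01 in ST-HSC and -0.15 in GMP, and 13 of 23 lay below 0 in each. The mean of the 23 genes was 9.77, 9.63 and 9.82 in KI ST-HSC and 9.61, 9.77 and 9.95 in WT ST-HSC, which overlap. In GMP it was 8.89, 9.39 and 9.36 in KI and 9.28, 9.32 and 9.40 in WT. KI GMP replicate 1 was the lowest array of its group for 17 of the 23 mitosis genes and for 4 of the 16 S phase genes. Without that array the median difference of the mitosis genes in GMP was 0.03, whereas that of the S phase genes was -0.22.

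**Figure D3:**
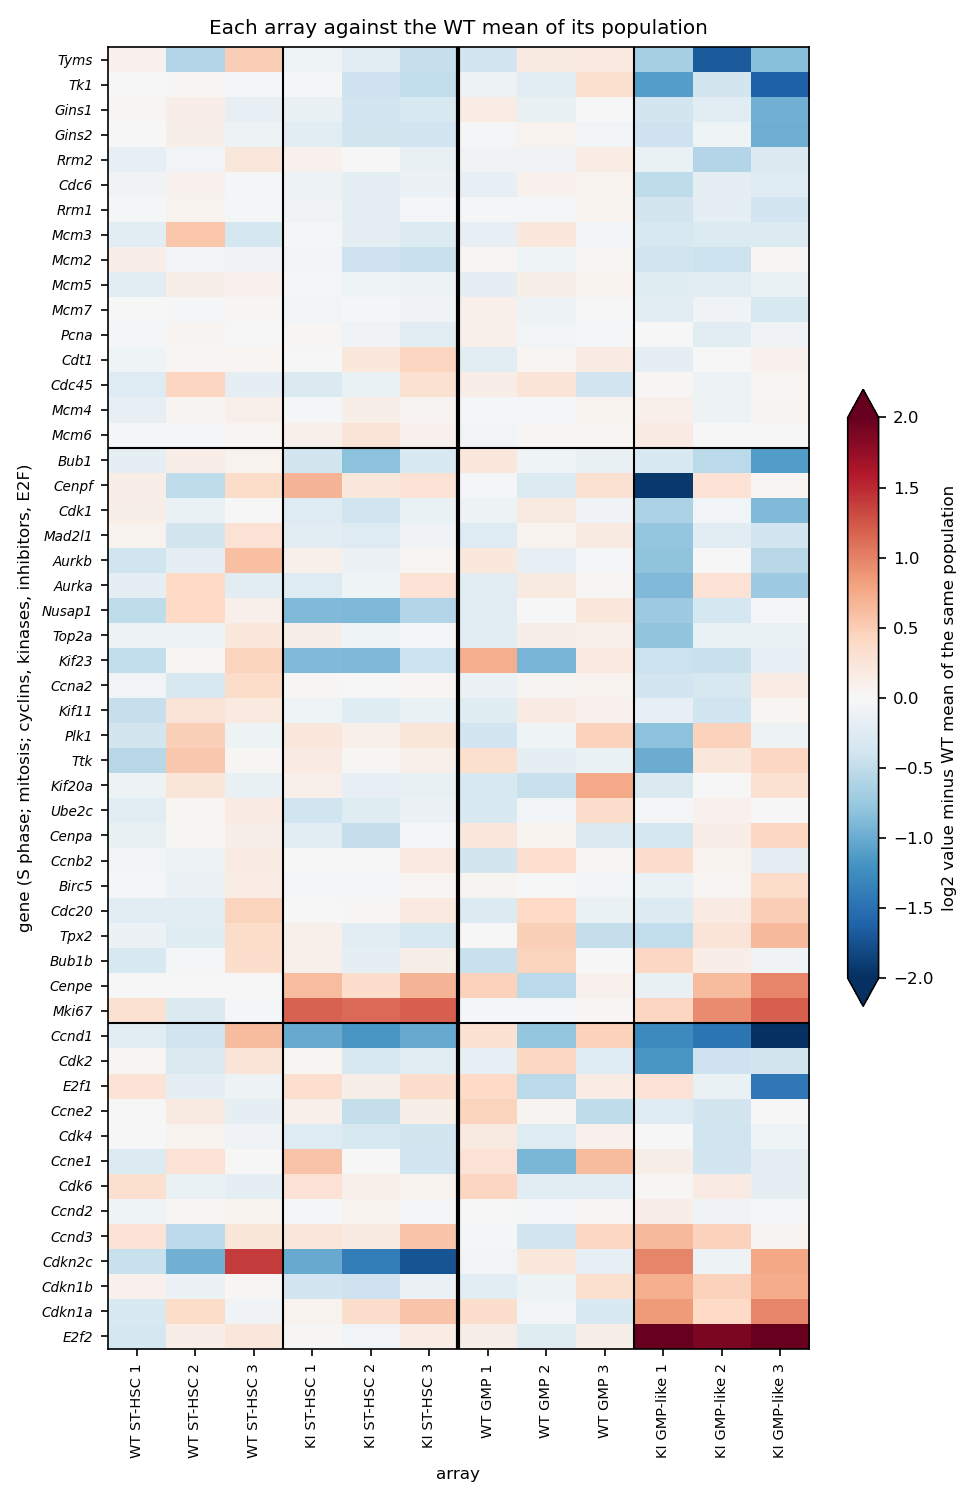
Log2 value of each of the 52 members in every array minus the mean of the 3 WT arrays of the same population, from -2 (blue) to 2 (red). KI GMP replicate 1 is the lowest KI GMP array for 17 of 23 mitosis genes, while E2f2, Ccnd1 and Mki67 stand out from their neighbours.

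Mki67 was the mitosis gene that changed. It encodes the Ki-67 protein, a coat of mitotic chromosomes that serves as the common marker of cells outside G0. Its log2 level was 11.54, 11.49 and 11.55 in KI ST-HSC and 10.67, 10.08 and 10.35 in WT ST-HSC. All KI arrays lay above all WT arrays, and the spread among the KI arrays was small (SD 0.03, n = 3, against 0.29 in WT). The difference was 1.17 (SE 0.20, 2.24-fold, limma adjusted p = 0.0122), and the call was lost with SAM and with the methods' t-test after adjustment (0.174). Against WT replicate 2 alone among the WT arrays it was 1.45 with an adjusted p of 0.0576, and leaving out KI ST-HSC replicate 2 or 3 moved the adjusted p to 0.0538 or 0.0537, so the call rests on these arrays while the direction does not. In GMP Mki67 was at 10.94, 11.45 and 11.70 in KI and at 10.49, 10.49 and 10.54 in WT, again without overlap, and the difference of 0.85 missed the threshold (SE 0.20, limma adjusted p = 0.0576). The difference between the populations was -0.31 (limma adjusted p = 0.85).

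Other markers of dividing cells differed less than Mki67, and none passed the test. Top2a, the topoisomerase that disentangles sister chromatids, differed by 0.00 in ST-HSC (interval -0.43 to 0.43) and by -0.35 in GMP (adjusted p = 0.475). Ccna2, Ccnb2, Birc5, Cdc20 and Aurkb differed by 0.02, 0.06, -0.01, 0.07 and 0.00 in ST-HSC. Cenpe, a kinesin of the kinetochore, was the only other mitosis gene with all KI arrays above WT in ST-HSC, at 8.99, 8.73 and 9.06 against 8.39, 8.37 and 8.38. Its difference was 0.55 (adjusted p = 0.494), and it was 0.49 in GMP, where the arrays overlapped. Cenpf, a neighbour of Cenpe at the kinetochore, differed by 0.39 in ST-HSC and by -0.53 in GMP, where KI replicate 1 stood at 5.92 and the other KI arrays at 8.15 and 7.89.

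Bub1, Kif23 and Nusap1 had the largest negative differences among the mitosis genes in ST-HSC, and none passed the test. Bub1, a kinase of the spindle checkpoint, was below WT on all arrays of both populations. It was at 7.96, 7.51 and 8.03 in KI ST-HSC against 8.13, 8.47 and 8.40 in WT, and at 7.90, 7.66 and 7.09 in KI GMP against 8.43, 8.12 and 8.05 in WT. The differences were -0.50 (adjusted p = 0.381) and -0.65 (adjusted p = 0.191). Nusap1, which bundles spindle microtubules, was at 9.38, 9.37 and 9.68 in KI ST-HSC and 9.76, 10.66 and 10.37 in WT ST-HSC. Its difference was -0.79 (limma adjusted p = 0.172), and a dimmer second probe set gave 0.79. Without WT ST-HSC replicate 1 the brightest probe set of Nusap1 gave -1.04 and passed (limma adjusted p = 0.0498). Kif23, a kinesin of cytokinesis, had differences of -0.74 in the stem cells (adjusted p = 0.457) and -0.35 in the progenitors (adjusted p = 0.779), with overlapping arrays in both.

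The promoters of the mitosis genes carried another set of letters. The cell cycle homology region (CHR), through which MuvB complexes bind, was searched as TTTGAA or TTCGAA on either strand, and it stood in 15 of 20 mitosis windows (75%), beside 19.2% of all windows, 21.4% of the S phase windows and 7.14% of the third group. The CCAAT box, bound by NF-Y, stood in 85% of the mitosis windows and 71.4% of the S phase windows, beside 37.4% of all. The core of a PU.1 site, GAGGAA, stood in 40% of the mitosis, 35.7% of the S phase and 7.14% of the remaining members' windows, beside 28.3% of all windows. The upstream part of the Mki67 window is shown because this gene changed, with 3 CCAAT boxes and then 2 CHR matches in capitals.
Mki67, chr7:135716451-135716629, minus strand: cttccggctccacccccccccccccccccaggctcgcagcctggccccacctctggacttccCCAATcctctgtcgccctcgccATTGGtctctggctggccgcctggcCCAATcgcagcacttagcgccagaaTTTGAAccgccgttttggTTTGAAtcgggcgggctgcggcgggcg
The CHR matches began 116 and 98 bases before the start, and the window held no match to the E2F or PU.1 letters. Other mitosis genes also had both a CHR match and a CCAAT box, among them Top2a, Ccnb2, Cdc20, Bub1 and Plk1. Over all of these other genes the differences in ST-HSC ran from -0.74 for Kif23 to 0.39 for Cenpf. These matches are descriptions of the letters in a window and not of bound factors.

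**Figure D4:**
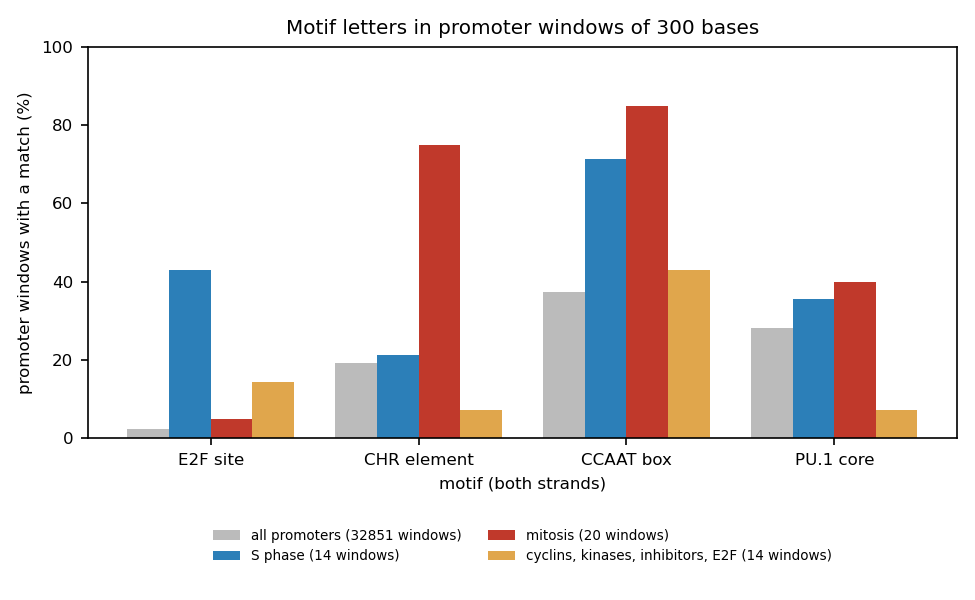
Share of promoter windows (%, 250 bases before to 50 after the start) that hold the letters of each motif on either strand, for all windows and for the 3 groups of members. The E2F letters stood in 42.9% of S phase windows and the CHR letters in 75% of mitosis windows, beside 2.26% and 19.2% of all windows.

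Among the D-type cyclins, which couple growth signals to the cycle, Ccnd1 was the one that fell. In GMP it was at 6.70, 6.51 and 5.93 in KI and at 8.28, 7.20 and 8.44 in WT, so that the groups did not overlap and WT replicate 2 was nearest to the KI arrays. The difference was -1.60 (SE 0.36, limma adjusted p = 0.0496), just inside the threshold. In ST-HSC KI arrays at 8.58, 8.42 and 8.57 also lay below WT arrays at 9.35, 9.18 and 10.21, a difference of -1.06 that did not pass (adjusted p = 0.210). The other 2 probe sets of Ccnd1 gave -1.44 and -1.49 in GMP (adjusted p = 0.193 and 0.0856).

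The Ccnd1 call depended on single arrays. It was lost in 9 of the 12 fits that left out 1 array, and it held without WT ST-HSC replicate 2, WT ST-HSC replicate 3 or WT GMP replicate 2. With WT replicate 2 as the only WT array of each population, the difference in GMP was -0.82 (adjusted p = 0.333). Hepatocyte markers varied between arrays as well. Their mean over the 6 measured was 5.61, 6.22 and 6.95 in WT GMP and 5.50, 5.91 and 5.27 in KI GMP, which overlap. In ST-HSC the mean was 6.25, 6.66 and 7.39 in WT against 5.80 to 5.95 in KI, without overlap. The part of these markers in the Ccnd1 difference was not tested.

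Ccnd2 and Ccnd3 passed the test in neither population by their brightest probe sets. Ccnd2, the brightest D-type cyclin probe set, lay between 11.94 and 12.10 on all 6 ST-HSC arrays, and was at 11.75, 11.54 and 11.59 in KI and 11.62, 11.59 and 11.65 in WT GMP. Its differences were 0.00 and 0.01, with intervals of -0.24 to 0.25 in ST-HSC and -0.23 to 0.26 in GMP, which leave room for neither a halving nor a doubling. Ccnd3 had differences of 0.33 in the stem cells (adjusted p = 0.701) and 0.39 in the progenitors (adjusted p = 0.599), and a dimmer probe set of Ccnd3 gave 2.31 in GMP (adjusted p = 0.0949). With its probe sets averaged Ccnd3 passed in GMP (1.02, limma adjusted p = 0.0227). Cdk6, a kinase partner of these cyclins, differed by 0.15 and 0.00, with KI at 11.09, 10.90 and 10.87 and WT at 11.12, 10.66 and 10.63 in ST-HSC and KI at 11.17, 11.31 and 10.96 and WT at 11.58, 10.92 and 10.93 in GMP. Cdk4 was below WT on all ST-HSC arrays by -0.31 (adjusted p = 0.423), and Cdk2, which drives entry into S phase with E-type cyclins, was below WT on all GMP arrays by -0.65 (adjusted p = 0.261). Ccne1 and Ccne2 overlapped between the genotypes in both populations.

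**Figure D5:**
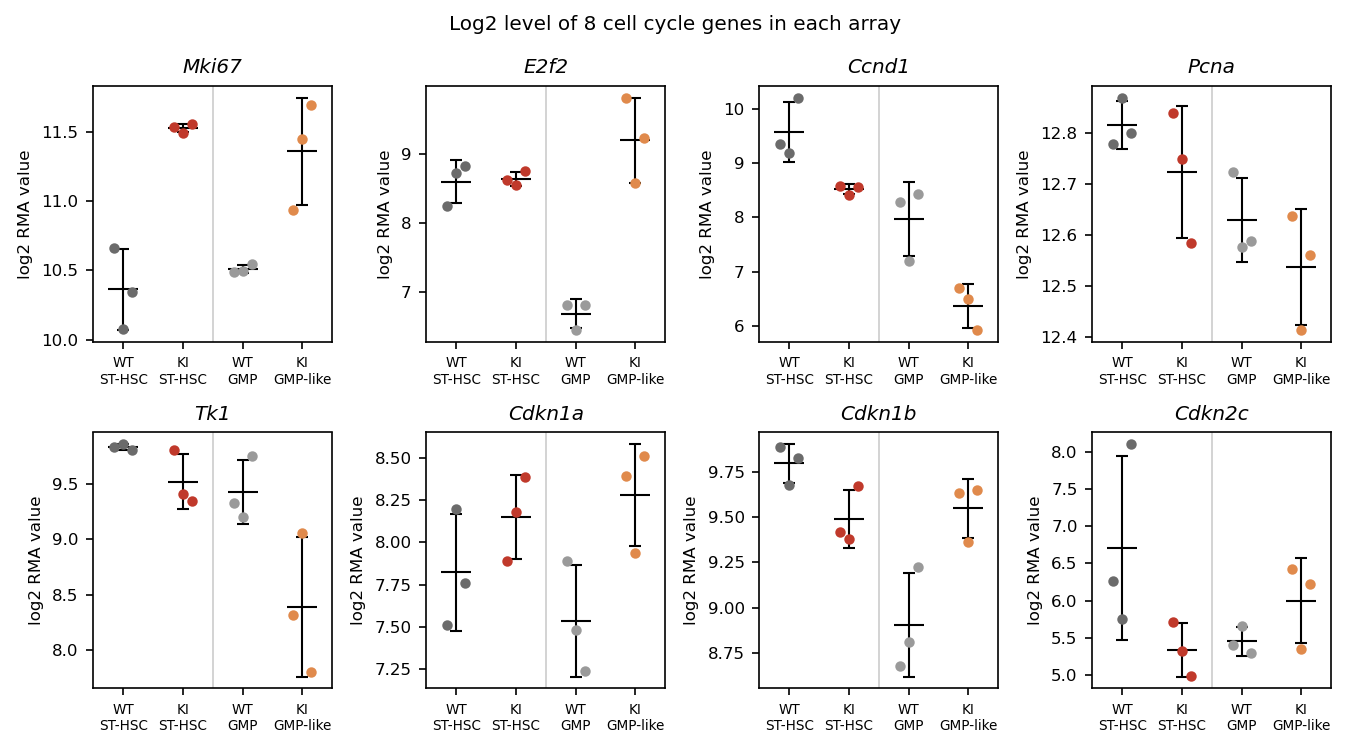
Log2 RMA level of 8 members in each array (points, in order of replicate number), with the mean and SD of the 3 arrays as a line and error bar; each panel has its own vertical scale, which does not start at 0. E2f2 is at 8.57 to 9.80 in KI GMP and 6.45 to 6.81 in WT GMP, and Pcna varies by under 0.5 over all 12 arrays.

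E2f2 had the largest difference of all members. It encodes one of the E2F activators, and it is known for its high level in maturing red cell precursors. In GMP it was at 9.80, 8.57 and 9.22 in KI and at 6.81, 6.45 and 6.81 in WT. The lowest KI array lay far above the highest WT array, and the difference was 2.51 (SE 0.28, 5.68-fold, limma adjusted p = 0.00136). This call held in all 12 fits that left out 1 array, with differences of 2.21 to 2.82, and was lost with SAM and with the methods' t-test after adjustment (0.25). A second probe set gave 1.58 without passing the test (adjusted p = 0.181).

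In ST-HSC E2f2 differed by less than the spread between arrays, at 8.62, 8.54 and 8.74 in KI and 8.25, 8.73 and 8.82 in WT (difference 0.04, interval -0.57 to 0.65, limma adjusted p = 0.973). The difference between the populations was 2.47, the largest among the members, with a limma adjusted p of 0.0809. With the E2f2 probe sets averaged, this difference was 1.64 (limma adjusted p = 0.258) and the GMP difference was 2.05 (limma adjusted p = 0.00662). E2f1, the related activator, differed by 0.27 in ST-HSC and -0.42 in GMP, with overlapping arrays in both. Erythroid markers moved in the same direction as E2f2 in GMP, with a mean over the 8 measured of 6.74, 7.18 and 6.71 in KI and 5.62, 6.17 and 5.88 in WT, and 0 of the 8 passed the test there. The 8 genes were mixed: 3 (Gata1, Epor and Car1) lay above WT on all arrays, Tfrc and Klf1 were higher in mean with overlapping arrays, and Car2, Hba-a1 and Rhag had differences of -0.59, -0.07 and -0.01. Of the 3 genes without overlap, Gata1 was at 7.88, 7.79 and 7.92 in KI GMP and 5.88, 7.41 and 6.27 in WT GMP, and Epor, the erythropoietin receptor, at 7.72, 7.65 and 8.33 against 5.72, 4.83 and 6.46. The same list was also higher in KI ST-HSC (7.82 to 8.35 against 6.29 to 6.84 in WT), where E2f2 differed by 0.04. The part of erythroid cells in the E2f2 difference was not tested. In the promoter window of the first E2f2 start, an E2F match, in capitals, began at base 40 of the transcript, and E2F sites in its own promoter are known for this gene family.
E2f2, chr4:136172293-136172322, plus strand: ccgaatttggcggcatatagTTTGGCGCta

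The inhibitors of the kinases did not pass the test in either population when represented by their brightest probe set. Cdkn1b (p27), which restrains Cdk2 and is linked to quiescence, lay on opposite sides of WT in the populations. In ST-HSC KI was at 9.42, 9.38 and 9.67 and WT at 9.88, 9.68 and 9.82, whereas in GMP KI was at 9.63, 9.36 and 9.65 and WT at 8.68, 8.81 and 9.22. The groups did not overlap in either population, although in ST-HSC the nearest arrays were 9.67 and 9.68. The differences were -0.31 (limma adjusted p = 0.497) and 0.64 (adjusted p = 0.0827), and a second probe set gave -0.40 and 0.84 (adjusted p = 0.0544 in GMP). With its probe sets averaged Cdkn1b passed in GMP (0.74, limma adjusted p = 0.0176), as it did without WT GMP replicate 3 (0.80, adjusted p = 0.0447). The difference between the populations was 0.95 (limma adjusted p = 0.246).

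Cdkn1a (p21), an inhibitor induced by p53, was at 8.39, 7.94 and 8.51 in KI GMP and 7.89, 7.48 and 7.24 in WT GMP, with no overlap and a difference of 0.74 (adjusted p = 0.162). A second probe set of Cdkn1a, of similar brightness, gave -0.15 in GMP, so the probe sets disagreed. In ST-HSC its difference was 0.33 (adjusted p = 0.658). Cdkn2c (p18), an INK4 inhibitor of Cdk4 and Cdk6, was low in most arrays, at 5.71, 5.32 and 4.98 in KI ST-HSC and 6.27, 5.76 and 8.10 in WT ST-HSC. Its difference of -1.37 (SE 0.52, adjusted p = 0.269) did not pass, and WT replicate 3 stood apart from the other arrays (-0.67 without it). In GMP the difference was 0.55 (adjusted p = 0.73).

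No member passed the test of the difference between the populations, beside 0.0495% of all genes. In 25 of the 52 members KI was below WT in both populations and in 12 it was above in both, and for S phase these were 13 and 2 of 16.

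Lists of further genes of the same processes, written with earlier results of these data known, were counted in the same way. Of 56 measured replication and DNA synthesis genes outside the members, 0 passed the test in either population. In GMP 46 of them (82.1%, beside 54.9% of all genes) lay below WT in mean, with a median of -0.23. Of the 56, 15 (26.8%) lay wholly below WT in GMP, beside 11.1% of all genes. In ST-HSC the share below WT in mean was 51.8%, beside 52.5% of all genes, and the median of the list was -0.02. The mean level of the 56 genes in the KI GMP arrays again lay below that of every WT GMP array, as the plot of gene group means shows. Of 97 further mitotic genes, 1 was lower in GMP, beside 1.4% of all genes. This was Nuf2, a part of the Ndc80 complex at the kinetochore, at -0.90 (limma adjusted p = 0.0374).

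Of 59 further cell cycle regulators, 3 were lower in KI ST-HSC and 0 higher, beside 1.68% and 1.33% of all genes, and in GMP 2 were higher and 1 lower, beside 1.19% and 1.4%. Btg2, an antiproliferative p53 target, was at 5.66, 6.01 and 5.97 in KI and 7.08, 7.80 and 7.42 in WT ST-HSC and fell by 1.55 on the log2 scale (limma adjusted p = 0.00726). Cdk14 and Cdk19 were lower by -1.54 and -1.25 (adjusted p = 0.0331 and 0.0461). The Btg2 call held in all 12 fits that left out 1 array, that of Cdk14 in 7 and that of Cdk19 in 2. In GMP, Rbl2 and Foxo1 were higher, and both are known for a part in quiescence: Rbl2 (p130) is the pocket protein of the DREAM complex and Foxo1 induces cell cycle inhibitors. Rbl2 was at 7.86, 7.88 and 7.87 in KI GMP and 6.65, 6.64 and 5.62 in WT GMP (1.56, limma adjusted p = 0.0352). Foxo1 averaged 7.59 ± 0.47 (SD, n = 3) against 6.24 ± 0.25, also without overlap (1.35, adjusted p = 0.0454). Cdc25a, the phosphatase that activates Cdk2, was lower in KI GMP, at 8.11, 8.26 and 7.98 against 8.83, 8.85 and 8.93 (-0.75, adjusted p = 0.0316). Of these GMP calls, Rbl2, Foxo1 and Cdc25a each held in 4 of the 12 fits that left out 1 array, and Nuf2 held in 3.

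Of 29 measured p53 targets, 2 passed upward and 1 downward in each population. Beside them, 1.33% of all genes were higher and 1.68% lower in ST-HSC, and 1.19% and 1.4% in GMP. Perp, a membrane protein of p53-dependent apoptosis, was higher in both populations, by 4.74 in the stem cells (limma adjusted p = 0.000225) and 4.04 in the progenitors (0.000698). Plagl1 was higher in ST-HSC by 4.35, and Ddit4, an inhibitor of mTORC1 signaling, in GMP by 3.18 (adjusted p = 0.0476). Without probe sets of the _x and _s types Plagl1 gave 1.97 in ST-HSC and did not pass (adjusted p = 0.0624), and the Ddit4 call held in 3 of the 12 fits that left out 1 array, with differences of 2.47 to 3.80. Btg2 was the target that was lower in ST-HSC, and Tigar, a regulator of glycolysis, was lower in GMP by -1.85 (adjusted p = 0.0171). The median difference over the p53 targets was -0.03 in ST-HSC and 0.01 in GMP, with 16 and 13 of the 29 below 0. Their mean level was nevertheless higher on every KI array. It was 7.31 to 7.34 against 7.08 to 7.22 in ST-HSC and 7.05 to 7.19 against 6.63 to 6.97 in GMP. Single large differences such as that of Perp raise this mean, so it does not show a rise across the list. In ST-HSC 7 of the 29 (24.1%) lay wholly below WT, beside 11.2% of all genes, and 3 wholly above, beside 10.9% of all genes. Cdkn1a, the best known p53 target of the cell cycle, passed the test in neither population.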

How the data were processed

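RNA of the sorted cells was amplified linearly, labelled with biotin and hybridized to 1 array per sample. Normalization by the authors used RMA (R-Bioconductor, version not given in the sources used here), and what they deposited is on the log2 scale. This method aligns array distributions, so a shift common to all genes is removed and differences at low signal are compressed. The arrays of the populations appear to have been normalized separately. Here 45037 probe sets entered the tests with no filter on low values, after removal of 64 controls. By the platform annotation, 34945 had 1 gene symbol, 932 several and 9160 none. With limma 3.58.1 (R 4.3.3), 1 fit of 4 group means gave KI minus WT for each population and the GMP value of it less the ST-HSC value. The fit had 8 residual degrees of freedom and 2.52 from the prior, and the script was tested on simulated data. A probe set was called when its Benjamini-Hochberg adjusted p was under 0.05. An exact permutation test of 3 against 3 arrays cannot give a p below 0.1. Members, lists and tests were chosen with earlier results of these data known. All members could be named, with values in full for those called, the 3 largest differences of each group and population, and a fixed set of cyclins, kinases and inhibitors; further genes were named where called, and other members as examples. Alternatives were the methods' SAM and t-test, other normalizations, filters and probe set rules, left-out arrays, a replicate block and Xist as a covariate. Promoter windows came from RefSeq.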

Additional observations from a re-analysis of the deposited data

Results flagged for a closer look

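Cdkn1b was singled out because every KI array of ST-HSC lay below WT and every KI array of GMP lay above WT. The difference between the populations was 0.95 on the log2 scale, and its own test gave a limma adjusted p of 0.246, so a difference was not shown. No group had 4 or more arrays, and no array was tested as an outlier.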

How the results depend on the processing

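Member counts were small, and alternatives moved them by 1 to 4 genes. The 1 member lower in KI GMP, Ccnd1, became 0 with only the 6 arrays of the comparison, array medians subtracted, SAM at a median of 0 false calls, the t-test after Benjamini-Hochberg adjustment, no probe sets of the _x and _s types, Xist as a covariate, or without the WT arrays of high Xist, and 3 with the t-test at an unadjusted p under 0.05. The count of 1 higher in KI GMP became 2 with quantile normalization, either filter on low values, and eBayes with trend and robust, 4 with the unadjusted t-test and with probe sets averaged (E2f2, Mki67, Ccnd3 and Cdkn1b with the latter), and 0 with SAM and the adjusted t-test. The count of 1 higher in KI ST-HSC became 0 with SAM, the adjusted t-test and without the WT arrays of high Xist, and 2 with the unadjusted t-test, and the 0 lower became 4 with the latter. Leaving out each array in turn gave 0 to 1 higher and 0 to 1 lower in ST-HSC, 1 to 2 higher and 0 to 2 lower in GMP, and 0 to 1 higher and 0 lower for the difference between the populations. The cause was not tested. Where 1 WT array of a population remained, it was assumed to vary like the other groups. No called value changed direction.

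Equal replicate numbers gave no sign of paired samples: the correlations of same-numbered deviations were 0.074, 0.064 and 0.034 in ST-HSC and -0.010, -0.038 and -0.004 in GMP. With the replicate block, the members lower in GMP went from 1 to 0 (Ccnd1, adjusted p = 0.113), and Mki67 in ST-HSC (0.0481) and E2f2 in GMP (0.0089) passed. The leave-out of KI GMP replicate 1 was named after its low mitosis values had been seen; without it Mki67 passed in GMP (1.06, adjusted p = 0.0198). Other probe sets of the members, 70 in all, had the opposite sign to the representative one in 29 cases in ST-HSC and 25 in GMP. With 3 arrays in a group, small differences were not detectable.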
